A study of Ovis aries with 16 samples.

Results

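STAR, the steroidogenic acute regulatory protein, is 1 of 1026 gene names that could be given to probes of the ovine array used here, and it was measured by 2 of the 15008 probes. Its members were taken as every probe whose gene name or description names STAR. The gene was selected with earlier results of these data known, because A_70_P039532 was 1 of 2 probes of the array that differed between hypoxia and normoxia after correction for all probes. Its values in that comparison are therefore given as a description, with no test. The protein carries cholesterol from the outer to the inner mitochondrial membrane, where CYP11A1 cuts the side chain to make pregnenolone. This transfer is the rate-limiting step of steroid synthesis in the adrenal cortex and the gonads, where pituitary hormones raise STAR through cyclic AMP and protein kinase A. STAR transcripts have also been described in neurons and glia, where the pathway serves the local synthesis of neurosteroids.

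Hippocampus came from 16 chronically catheterized late-gestation fetal sheep, with 1 array per fetus. The 4 groups were normoxia without ketamine (NC, n = 3), normoxia after ketamine (NK, n = 4), hypoxia without ketamine (HC, n = 5) and hypoxia after ketamine (HK, n = 4). Hypoxia was ventilatory, imposed on the ewe for 30 min, and ketamine, an NMDA receptor antagonist, was given intravenously at 3 mg/kg beforehand. All fetuses then had 23.5 h of normoxia, and tissue was taken at 24 h. Each pregnancy was assigned to normoxia or hypoxia at random, and most fetuses were twins. The labels do not say which arrays came from the same ewe. In whole tissue, a change in the number of cells that express a gene and a change in the RNA per cell cannot be told apart. The arrays were of similar brightness, with 75th percentiles between 882 and 1199 intensity units and between 76.7 and 82.6% of spots well above background. They lay on 2 slides, and each slide held arrays of all 4 groups.

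Both STAR probes are 60 bases long and come from the same RefSeq transcript record, to which the array's annotation places A_70_P039532 at bases 1091 to 1150 and A_70_P039531 at bases 1092 to 1151. They share 59 bases and so report on the same piece of the transcript. The first 30 bases of each are shown because they make this shift of 1 base visible, with the shared bases in capitals.

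A_70_P039532: gCTACTACAGTAGCATTTTAGTACCAAGAG
A_70_P039531: CTACTACAGTAGCATTTTAGTACCAAGAGa

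No other of the 15006 probes shared a run of more than 13 bases with either of them on either strand. The array files give the probes no genome position. In the RefSeq annotation of ARS-UI_Ramb_v3.0, one end of STAR's span overlaps one end of ASH2L, a subunit of histone methyltransferase complexes, and the annotation used here gives no strand. Whether the probes lie in that overlap was not tested.

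STAR was near the limit of detection in normoxia and was marked well above background in hypoxia. In NC, the processed signal of A_70_P039531 was 8.87, 7.84 and 6.16 intensity units on the 3 arrays, and that of A_70_P039532 was 6.27, 3.57 and 8.26. Neither reached the software's mark for a spot well above background on any of the 3. That mark stands for a signal of more than 13 standard deviations of the background. In NK, A_70_P039531 gave 6.02, 13.8, 20.4 and 16.5 units and was well above background on 3 of 4 arrays. A_70_P039532 gave 13.3, 13.5, 13.9 and 8.58 units in NK and was also well above background on 3 of 4. The array that fell short was replicate 1 for the former probe and replicate 4 for the latter, so that no NK array was below the mark on both.

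Every hypoxia array carried both probes well above background. In HC, A_70_P039531 gave 30.3, 49.97, 50.3, 25.0 and 24.3 units, and A_70_P039532 gave 27.2, 45.2, 34.9, 29.6 and 20.2 units. Replicates 2 and 3 were the highest HC arrays on both probes. In HK, A_70_P039531 gave 36.5, 23.3, 22.1 and 19.8 units, and A_70_P039532 gave 33.6, 29.3, 16.6 and 21.3 units.

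To compare arrays, each signal was put on the log2 scale and set against its own array's 75th percentile, so that a value of -5 is a signal 5 doublings below that percentile. On this scale A_70_P039531 averaged -7.05 ± 0.13 in NC (SD, n = 3), -6.25 ± 0.77 in NK (n = 4), -5.33 ± 0.24 in HK (n = 4) and -5.01 ± 0.48 in HC (n = 5). A_70_P039532 averaged -7.46 ± 0.70 in NC, -6.35 ± 0.26 in NK, -5.36 ± 0.40 in HK and -5.18 ± 0.36 in HC, with the same n. The order of the groups was thus NC, NK, HK and HC on both probes. HK and HC overlapped on both probes and NK and HK on neither. NC and NK overlapped on A_70_P039531, and on A_70_P039532 a gap of 0.05 separated them.

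**Figure D1:**
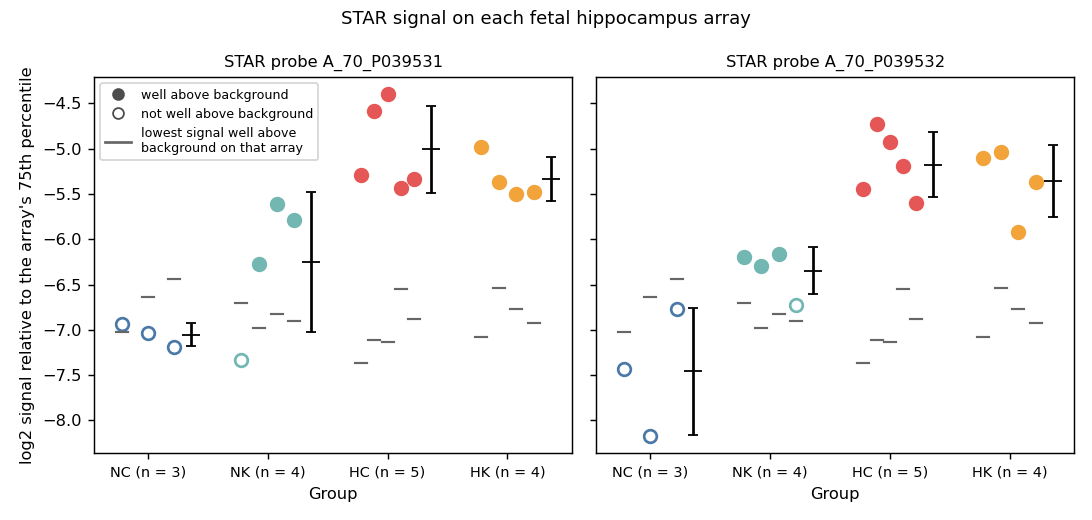
Log2 signal of each STAR probe relative to the array's 75th percentile (vertical axis) on the 16 arrays by group (horizontal axis). Filled points were well above background and open points were not, short grey lines give the lowest signal of any probe well above background on that array, and the black mark and bar give the group mean ± SD. All 3 NC arrays are open on both probes, and all 9 hypoxia arrays are filled and lie above every normoxia array.

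Hypoxia without ketamine against normoxia without ketamine is the comparison by which the gene was selected. The log2 difference, HC minus NC, was 2.05 ± 0.34 (SE) for A_70_P039531 and 2.28 ± 0.29 for A_70_P039532. Since NC had no array well above background, the fold is a lower bound. It was computed against the higher of the NC probe's own signal and the lowest signal well above background on the same array. With this processing, STAR was at least 3.16-fold higher in HC by A_70_P039531 and at least 2.87-fold higher by A_70_P039532. The lowest HC array was above the highest NC array by 1.505 and 1.17 on the log2 scale. The bounds do not hold for other processing. HC minus NC was 1.47 and 1.33 with normexp background correction, and 0.13 and 0.072 in the authors' log2 table, whose scale differs. Of all 12543 probes, 4.54% were higher in HC at an unadjusted p under 0.05, the criterion of the study, and 2.89% were higher in HC with no overlap. Within slide 1 the HC-NC difference was 2.05 and 2.71 for A_70_P039531 and A_70_P039532, and within slide 2, which held 1 NC array, it was 2.14 and 1.53.

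Ketamine in normoxia was compared with no ketamine in normoxia, a comparison that shares the NC arrays and is likewise given without a test. The gene was also known from this comparison beforehand. NK was above NC by 0.80 ± 0.35 (SE) on A_70_P039531 and by 1.11 ± 0.31 on A_70_P039532 on the log2 scale. Computed as for HC, with NC raised to the lowest signal well above background, NK was 1.34-fold and 1.28-fold higher. These are not strict bounds, since on each probe an NK array short of the mark entered at its measured signal. The sizes moved with the slide and in opposite directions on the probes. A_70_P039531 gave 0.18 within slide 1 and 1.49 within slide 2, and A_70_P039532 gave 1.56 and 0.33. The signals behind these values lie at the limit of detection.

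Ketamine in hypoxia was compared with hypoxia alone, which shares the HC arrays with the comparison used for selection. HK was below HC by a mean of 0.33 on A_70_P039531 and 0.18 on A_70_P039532, written as log2 differences of -0.33 ± 0.31 (SE) and -0.18 ± 0.27. Both are smaller than the spread between arrays of a group, which was 0.49 and 0.43 (pooled SD). No HK array lay above the highest HC array, and the groups overlapped. Leaving out HK replicate 3 or using normexp background correction turned the sign for A_70_P039532.

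Hypoxia against normoxia in fetuses that had all received ketamine was the comparison tested. Its difference shares no array with the comparison that selected STAR. Its limma SE, confidence interval and p are not independent of that selection. They use a spread estimated over all 4 groups, HC and NC included. The NK arrays also enter NK-NC, from which the gene was known before this test. The exact permutation test below uses the same NK arrays and so is not free of that earlier knowledge. STAR was higher in HK than in NK on both probes. On A_70_P039531 the 4 HK arrays ranged from -5.50 to -4.99 and the 4 NK arrays from -7.33 to -5.61. On A_70_P039532 the HK arrays ranged from -5.92 to -5.04 and the NK arrays from -6.72 to -6.17. Every HK array was above every NK array on both probes, by a gap of 0.11 and 0.25. Such a separation in this direction was seen in 1.86% of the probes tested.

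The HK-NK log2 difference of A_70_P039531 was 0.92 ± 0.33 (SE; 95% confidence interval 0.22 to 1.62), a 1.89-fold higher signal. That of A_70_P039532 was 0.99 ± 0.28 (SE; 0.38 to 1.59), or 1.98-fold. In limma's moderated test the unadjusted p was 0.014 and 0.0036, which passes the criterion that 2.81% of all probes passed in this direction. After Benjamini-Hochberg adjustment over the 12543 probes the limma p was 0.90 and 0.89, so that neither probe passed. Across the whole array 0 probes passed the correction in HK-NK (limma's smallest adjusted p was 0.836), while 660 passed unadjusted. With only HK and NK fitted, which leaves HC and NC out of the spread, the limma unadjusted p was 0.032 for A_70_P039531 and 0.0018 for A_70_P039532. The exact two-sided permutation test over the 4 HK and 4 NK arrays gave p = 0.0286 for each probe, the smallest value that 70 arrangements allow. HK was the higher group within both slides. The difference was 1.62 in slide 1 and 0.21 in slide 2 for A_70_P039531, and 1.17 and 0.80 for A_70_P039532. Without NK replicate 1, whose A_70_P039531 spot was not well above background, that probe's difference was 0.55 and the limma p was 0.048. The call was lost on both probes with normexp background correction (log2 differences of 0.29 and 0.38, limma unadjusted p = 0.73 and 0.68) and with one background value per array (0.22 and 0.17, limma unadjusted p = 0.063 and 0.050). In the authors' log2 table it was lost on A_70_P039531 (limma, unadjusted p = 0.071) and kept on A_70_P039532 (0.036).

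**Figure D2:**
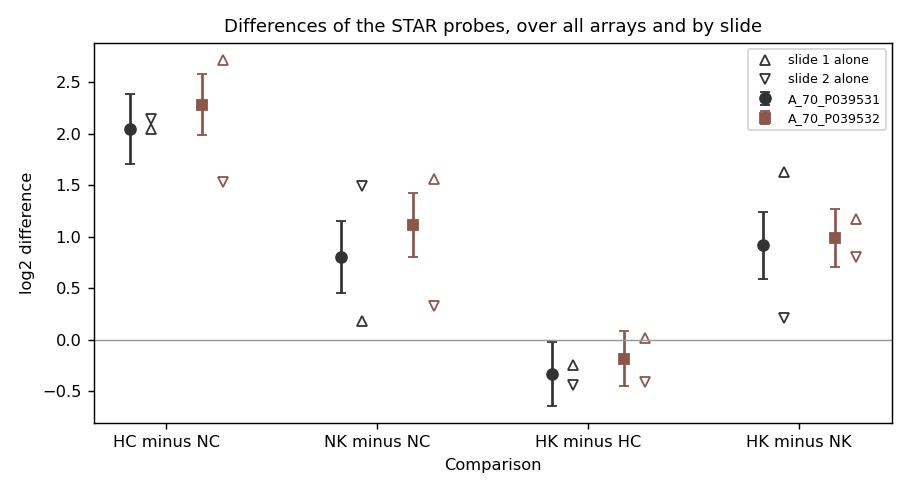
Log2 difference of each STAR probe (vertical axis) in the 4 comparisons (horizontal axis), with filled marks and bars for the estimate ± SE over all arrays and open triangles for each slide alone. HC minus NC and HK minus NK are above 0 on both probes and both slides, while HK minus HC lies between -0.44 and 0.02 over all arrays and slides.

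Since the probes share nearly all of their bases, their difference on an array is a measure of spot-to-spot error. Its SD over arrays was 0.55 on the log2 scale, against a median of 0.58 (range 0.22 to 1.38) in 48 other pairs of near-identical probes of like brightness. It was 0.29 over the hypoxia arrays and 0.80 over the normoxia arrays, where the signals were lower. The probes correlated over the 16 arrays with Pearson's r of 0.83, and over the deviations from group means with r of 0.16. The probes are repeat readings of each fetus and not separate replicates. With their mean taken as 1 measurement, the HK-NK difference was 0.95 ± 0.24 (SE) on the log2 scale, with an unadjusted limma p of 0.0012 and an adjusted p of 0.81.

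The genes that act beside STAR in steroid synthesis were described from a list of enzymes and partners of which 9 had a probe. CYP11A1, which takes the next step after STAR, and CYP11B1, which makes cortisol, were not well above background on any of the 16 arrays. CYP17A1 and CYP21A2, hydroxylases on the way to cortisol, were well above background on all 16. Their HC-NC differences were -0.08 and -0.07 on the log2 scale. TSPO, an outer mitochondrial membrane protein long linked to cholesterol import, differed by -0.32 ± 0.37 (SE) in HC-NC and by -0.17 ± 0.36 in HK-NK. CYP19A1, the aromatase that makes estrogen, was well above background on 1 array each of NK, HC and HK. Among the 7 genes of the list that were tested, none passed an unadjusted p under 0.05 in any of the 4 comparisons by limma, and none passed after adjustment. The median log2 difference of these genes was -0.08 in HC-NC and 0.01 in HK-NK, beside medians of -0.03 and -0.01 over all probes.

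Steroid-producing endocrine cells are defined by NR5A1, the factor that turns on the steroidogenic genes, and by MC2R, the receptor for ACTH. Neither was well above background on any array, nor were CYP11A1 and CYP11B1. Of the 12 marker genes of adrenal cortex and gonad with a probe, 8 were well above background on some array. CYP17A1, CYP21A2, INHA, INHBA and INSL3 were so on all 16, LHCGR on 7, FSHR on 6 and CYP19A1 on 3. The summed signal of the 12 lay between 140 and 143% of the 75th percentile in NC, 108 and 176% in NK, 91.4 and 161% in HC and 81.3 and 159% in HK, with overlap between all groups.

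Of the genes of cholesterol supply, 9 were tested. LCAT, which esterifies cholesterol on lipoproteins, was higher in HC than in NC by 0.70 ± 0.26 (SE) on the log2 scale (limma, unadjusted p = 0.018). In that direction 4.54% of all probes passed. LIPA, the lysosomal lipase that frees cholesterol from its esters, was lower in HK than in NK by a log2 difference of -0.36 ± 0.11 (limma, unadjusted p = 0.0059), a direction in which 2.46% of all probes passed. In NK-NC and HK-HC no gene of this list passed the unadjusted criterion, and none passed the adjusted one in any comparison by limma.

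Among the regulators of STAR, 18 genes were tested. In HC-NC 2 were higher and 1 was lower, where 4.54% of all probes were higher and 6.27% lower. AGTR1, the angiotensin II receptor through which the adrenal zona glomerulosa is stimulated, was higher by 1.16 ± 0.36 (SE; limma, unadjusted p = 0.0060). CEBPB, a transcription factor that binds the STAR promoter and is also induced in inflammation, was higher by 1.25 ± 0.47 (limma, unadjusted p = 0.019). IGF1, the growth factor, was lower, with a log2 difference of -0.59 ± 0.27 (limma, unadjusted p = 0.043). AGTR1 was the only regulator past the criterion in HK-NK, where it was higher by 0.99 ± 0.35 (limma, unadjusted p = 0.012), the direction in which STAR differed. AGTR1 was well above background on all 16 arrays.

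In HK-HC, CEBPB and IGF1R, the receptor for IGF1, were lower, by log2 differences of -1.09 ± 0.43 and -0.35 ± 0.13. FSHR, a gonadal receptor, passed in NK-NC (0.83, limma unadjusted p = 0.022), but its spots fell short of the background mark in all of NC. They reached the mark on 3 NK arrays. With NC raised to the mark, NK was 1.28-fold higher, which is not a strict bound. Protein kinase A, through which hormones raise STAR, was measured through 2 of its subunits, and neither passed in any comparison. PRKACA, its catalytic subunit, differed by -0.10 ± 0.16 in HC-NC and 0.04 ± 0.15 in HK-NK, and PRKAR1A, a regulatory subunit, by 0.10 and 0.00075. CREB1, a factor that the kinase activates, differed by -0.12 and 0.01. FOS, JUN, JUNB, JUND and EGR1, immediate-early factors with sites in the STAR promoter, had HC-NC differences between -0.30 and 0.34, and none passed.

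Steroid receptors and their targets were represented by 7 genes. NR3C1, the glucocorticoid receptor, differed by -0.33 ± 0.22 (SE) in HC-NC and by -0.33 ± 0.21 in HK-NK on the log2 scale, neither past the criterion. NR3C2, the mineralocorticoid receptor that is abundant in hippocampal neurons, was lower in HK than in NK with a difference of -1.01 ± 0.41 (limma, unadjusted p = 0.027). ESR1, an estrogen receptor, was higher in HK than in HC by 0.96 ± 0.42 (limma, unadjusted p = 0.036), where 2.86% of all probes were higher. NFKBIA, an inhibitor of NF-kB that glucocorticoids and inflammatory signals both induce, was higher in HC than in NC by 1.30 ± 0.35 (limma, unadjusted p = 0.0022). None of these genes passed the adjusted criterion.

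Genes of the inflammatory response were listed because the rule for STAR names IL1RN and CD14, and several of them were entered with these results known. In HC-NC 18 of 26 genes tested were higher and 0 lower at the unadjusted criterion, where 4.54% of all probes were higher. Their median log2 difference over the 26 was 1.19. In HK-NK 6 were higher and 0 lower, with a median of 0.52, where 2.81% of all probes were higher. The count of 6 became 1 under normexp, 2 in the authors' table and 12 with the replicate block. It was 12 with only the 2 groups fitted and 0 without HK replicate 2 (0 to 10 without 1 array). In HK-HC 7 were lower and 0 higher, with a median of -0.78, where 1.87% of all probes were lower. That count was 1 under normexp, 1 with only the 2 groups fitted, 16 with the replicate block, 15 with array weights and 2 to 13 without 1 array. In NK-NC 0 of 26 passed, where 0.71% of all probes were higher and 1.07% lower. CXCL10, a chemokine induced by interferon, had the widest HK-NK difference among the 6, 3.72 (limma, unadjusted p = 0.034). SELP, an adhesion molecule of activated endothelium, differed by 2.52 (limma, unadjusted p = 0.018) and IRF1, an interferon-response factor, by 1.74 (limma, unadjusted p = 0.037).

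**Figure D3:**
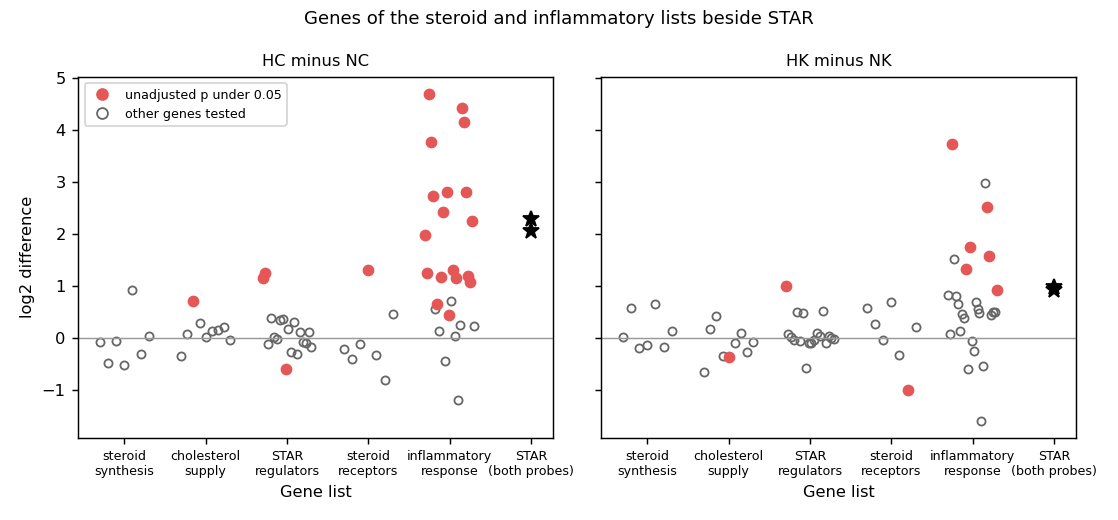
Log2 differences (vertical axis) of the genes tested in each list (horizontal axis), for HC minus NC on the left and HK minus NK on the right, with filled points past an unadjusted limma p under 0.05 and stars for both STAR probes. The genes of the steroid synthesis list lie within 1 of 0 in both panels, while 18 of 26 inflammatory genes are filled on the left and 6 on the right. Over all probes, 4.54% were higher at this criterion in HC minus NC and 2.81% in HK minus NK.

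IL1RN, the secreted antagonist of the interleukin-1 receptor, and CD14, the co-receptor for bacterial lipopolysaccharide on myeloid cells, were set against STAR array by array. IL1RN was well above background on 0 of 3 arrays in NC, on 1 of 4 in NK, on 5 of 5 in HC and on 2 of 4 in HK. Relative to the 75th percentile its log2 signal lay between -7.39 and -6.92 in NC, -8.16 and -6.57 in NK, -5.98 and -3.11 in HC and -6.70 and -5.01 in HK. With the same processing it was at least 3.94-fold higher in HC than in NC. CD14 was well above background on all 16 arrays. Its log2 signal lay between -3.57 and -3.05 in NC, -3.57 and -2.95 in NK, -2.65 and -0.35 in HC and -3.26 and -1.40 in HK.

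Over the 16 arrays the brighter STAR probe, A_70_P039531, correlated with IL1RN with Pearson's r of 0.75 and Spearman's rho of 0.80, and with CD14 with r of 0.78 and rho of 0.86. These are descriptions, since the pairing was part of how the gene was chosen and all these genes were higher in HC than in NC. Part of the correlation comes from the differences between groups. In HK-HC the log2 difference was -1.21 for IL1RN and -1.10 for CD14, against -0.33 and -0.18 for A_70_P039531 and A_70_P039532. In NK-NC it was -0.11 for IL1RN and 0.05 for CD14, against 0.80 and 1.11 for STAR near its limit of detection. Whether these genes differ from STAR in their response to ketamine was not tested. Over the deviations from group means, r was 0.41 for IL1RN and 0.52 for CD14. These rest on A_70_P039531 alone, and the 2 STAR probes had r of 0.16 with each other over the same deviations. Over the 9 hypoxia arrays alone, r was 0.47 for IL1RN and 0.75 for CD14, and over the 7 normoxia arrays, where STAR and IL1RN were mostly not well above background, 0.49 and 0.48. Within slide 1 (8 arrays) r was 0.80 for IL1RN and 0.95 for CD14, and within slide 2 (8 arrays) 0.68 and 0.59. Without the 2 arrays farthest from the median of STAR, NC replicate 3 and NK replicate 1, r was 0.66 and 0.78. The other STAR probe gave 0.71 with IL1RN and 0.75 with CD14.

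**Figure D4:**
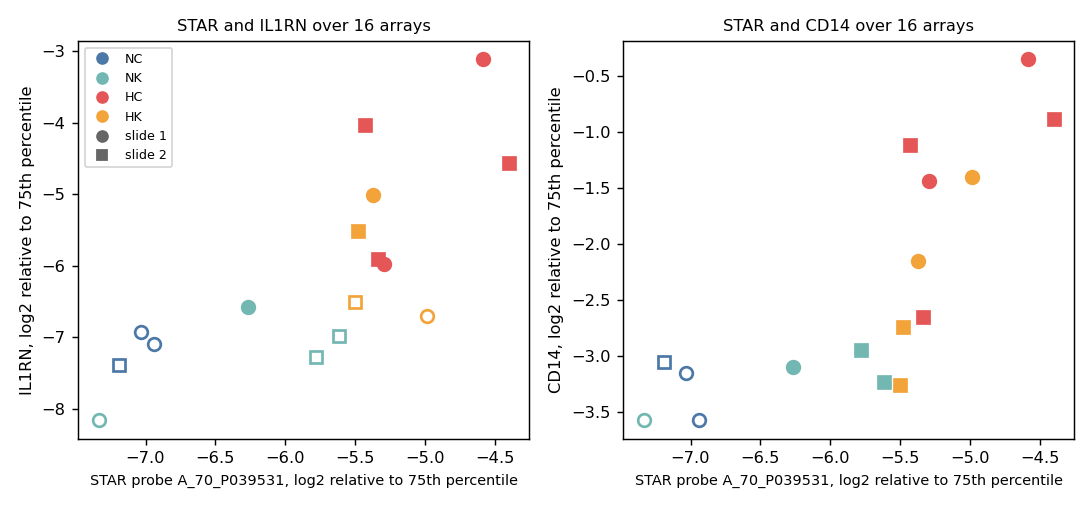
Log2 signal of IL1RN (left) and CD14 (right) on the vertical axis against STAR probe A_70_P039531 on the horizontal axis, each relative to the array's 75th percentile, over 16 arrays. Colors mark the groups, circles slide 1 and squares slide 2, and open marks an array on which either gene was not well above background. HC arrays lie at the upper right and NC arrays at the lower left, which corresponds to r of 0.75 and 0.78.

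Ranked by Pearson's r with A_70_P039531 over the 16 arrays, CD14 was the 3rd and IL1RN the 7th of 871 gene names, each by its brightest probe. The median r over all names was 0.02. SLC11A1, a metal transporter of phagocyte vacuoles, was highest with 0.85, and IGFBP3, a binding protein for insulin-like growth factors, followed with 0.81. They were the only names at 0.8 or above. The others of the first 10 were PDXK, which activates vitamin B6 (0.78), IL2RA, a subunit of the interleukin-2 receptor (0.77), C5aR, the receptor for the complement fragment C5a (0.76), NFKBIA (0.73), SAA3, an acute-phase protein (0.72), and SELP (0.72). These names were picked for following STAR, which was selected as high in HC against NC, so their own HC-NC differences are fixed in part by the choice and no test of them is given.

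Over the deviations from group means, SLC11A1 had r of 0.63, IL2RA 0.63, C5aR 0.61 and IGFBP3 0.57, while PDXK, NFKBIA and SELP were at 0.32, 0.29 and 0.23. The lowest r was that of TRPC4AP, a scaffold protein, at -0.73 (-0.69 over the deviations). AHR, the aryl hydrocarbon receptor, TNFRSF11B, a decoy receptor for the osteoclast ligand, LOC443244 and KIF5B, a kinesin motor, followed with -0.73, -0.69, -0.68 and -0.61. For AHR and KIF5B r over the deviations was -0.20 and -0.23. All these values rest on A_70_P039531, which had r of 0.16 with the other STAR probe over the deviations.

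**Figure D5:**
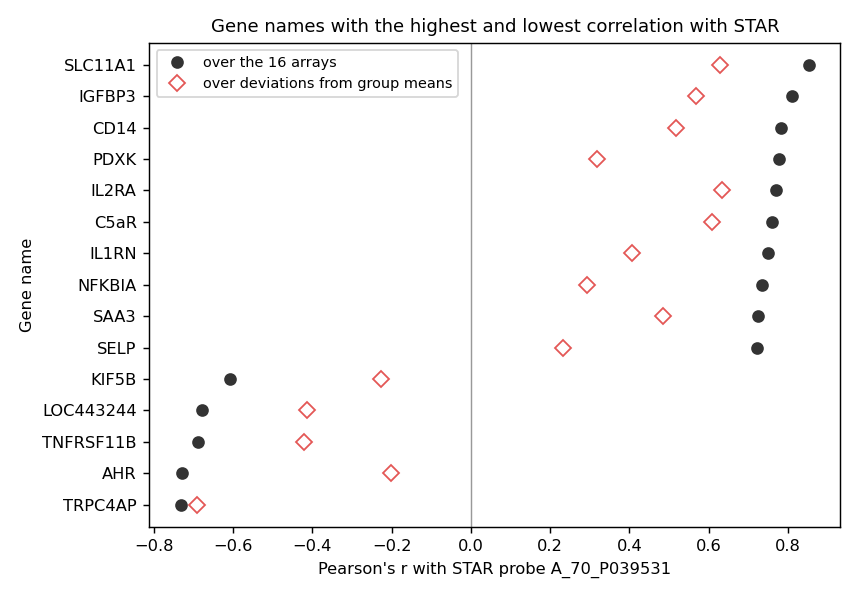
Pearson's r with STAR probe A_70_P039531 (horizontal axis) for the 10 gene names with the highest and the 5 with the lowest value (vertical axis), filled over the 16 arrays and open over the deviations from group means. The upper 10 lie between 0.72 and 0.85 over the arrays and between 0.23 and 0.63 over the deviations.

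Summed levels of some marker lists followed STAR over the arrays. For microglia and macrophages, 6 of 19 listed markers had a probe and all 6 were well above background on some array. Their summed signal was 51.1 to 64.3% of the 75th percentile in NC, 55.0 to 65.1% in NK, 58.3 to 106% in HK and 84.2 to 216% in HC, and its log2 value correlated with STAR with r of 0.76 over the 16 arrays. CD14 is itself in this list. The NC and NK ranges of the sum overlapped. In HC-NC the log2 differences of these markers ran from 0.51 for ITGAM, a myeloid integrin, to 1.97 for CD14, and 3 of 6 passed the unadjusted criterion. Over all probes, 4.54% were higher there. In HK-NK 0 of 6 passed in limma's test, and FCGR1A and FCGR2B, Fc receptors, had differences of -0.18 and -0.56. For neutrophils, LTF and CATHL3, granule proteins, were higher in HK than in NK by 1.98 and 4.42 (limma, unadjusted p = 0.011 and 0.0034). In that direction 2.81% of all probes passed. In HC-NC they differed by 1.47 and 2.46, neither past the criterion (limma, unadjusted p = 0.055 and 0.078). In HK-HC they differed by 0.42 and 0.54. MMP9, the remaining marker, was well above background on 1 array, in NC, and was not tested. The summed level of the 3 markers was 13.9 to 28.9% in NC and 5.87 to 27.5% in NK. It was 28.1 to 579% in HC and 29.7 to 720% in HK, with r of 0.58 with STAR. For endothelium, 6 of 11 markers had a probe, with sums of 108 to 120% in NC, 84.5 to 138% in NK, 123 to 342% in HC and 106 to 183% in HK, and HC-NC differences from -0.40 for KDR, a VEGF receptor, to 4.15 for SELP, the 1 of 4 tested that passed there. PECAM1, an endothelial adhesion molecule, differed by 0.08, and KDR was lower in HK than in NK, with a difference of -0.51 (limma, unadjusted p = 0.017). Sums for red blood cells, neurons, astrocytes, and choroid plexus and meninges had r with STAR between -0.15 and 0.42. The part of these cells in the STAR signal was not tested.

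Over the 16 arrays the share of spots well above background had r of 0.50 and rho of 0.54 with STAR. The 75th percentile was between 901 and 1086 in NC, 906 and 1064 in NK, 978 and 1199 in HC and 882 and 1156 in HK, and its log2 value had r of 0.38 with STAR. STAR was scaled to the 75th percentile, and the part of either measure in the result was not tested.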

How the data were processed

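Total RNA of 16 fetal hippocampi was labelled with Cy3 and hybridized to one-color Agilent ovine arrays. The deposited scanner intensity values came from Feature Extraction 10.1.1.1, per the file headers, with spatial and multiplicative detrending and no subtraction of local background. The authors also deposited a table of normalized log2 values, per the labels made with limma in R 2.15.1, which served as an alternative. Each processed intensity was taken as log2 and reduced by its array's 75th percentile over non-control probes, which sets a common scale. Control and outlier-marked spots were dropped and spots of a probe were averaged. A probe was tested if its spots reached the well-above-background mark on 3 or more of the 16 arrays, which 12543 of 15008 did, both STAR probes among them. This filter can pass a probe through the group where it is high. The 4 groups entered a single linear model (limma 3.58.1, R 4.3.3), with Benjamini-Hochberg adjustment over all probes, after a check on simulated data. Names came from the array files and RefSeq for 1659 probes, with 1 probe per name, the brightest. Slides were read from array barcodes.

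STAR and all gene lists were chosen with earlier results of these data known. Named were both STAR probes, IL1RN and CD14, the 10 names with the highest and 5 with the lowest correlation with STAR, list genes past an unadjusted p under 0.05 (at most 8 a list), and fixed genes of the pathway. In each list 1 probe per name was counted, and none of the oligodendrocyte markers had a named probe. Same-numbered arrays of NC and NK deviated together from their group means (r between 0.21 and 0.37 in 3 pairs). In HC and HK 1 of 4 such pairs was at 0.07, in NK and HK the lowest was 0.03, and in NC and HC it was 0.04. Alternatives were other background correction, scaling, filter, blocks, weights, and leaving out each array. P-values measure the spread between fetuses, and twins may share an ewe. The number of arrays limits the precision.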

Additional observations from a re-analysis of the deposited data

How the results depend on the processing

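The HC-NC and NK-NC differences of both STAR probes stayed positive under every alternative that gave a value. With STAR required to be well above background on all 16 arrays it was not tested. The log2 scale of the alternatives differs. Normexp with an offset of 50 gave HC-NC differences of 1.47 and 1.33 for A_70_P039531 and A_70_P039532, HK-NK of 0.29 and 0.38 (limma, unadjusted p = 0.73 and 0.68), and HK-HC of 0.10 for A_70_P039532, a reversed sign. On 7 arrays some spot's local background exceeded 1000 units, where the medians were 20.5 to 28. With one background value per array instead, added after seeing the data, HC-NC was 0.41 and 0.23, NK-NC 0.15 and 0.13, HK-NK 0.22 and 0.17 (limma, unadjusted p = 0.063 and 0.050), and HK-HC of A_70_P039532 0.069. In the deposited log2 table, where STAR lay between 8.07 and 8.27 and array medians near 8.69, HC-NC was 0.13 and 0.072, NK-NC 0.047 and 0.013, and HK-NK of A_70_P039531 0.055 (limma, unadjusted p = 0.071). HK-NK of A_70_P039532 kept its call there (limma, unadjusted p = 0.036).

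Leaving out each array in turn gave HC-NC of 1.89 to 2.152 and 1.93 to 2.63, NK-NC of 0.59 to 1.17 and 0.76 to 1.46, HK-HC of -0.44 to -0.17 and -0.29 to 0.0045 (the last without HK replicate 3), and HK-NK of 0.55 to 1.13 and 0.86 to 1.17, and no HK-NK call was lost. With the replicate block, HK-NK was 0.92 and 0.99 (limma, unadjusted p = 0.024 and 0.0090), and STAR kept its calls. In HC and HK, same-numbered arrays had r of 0.07 to 0.39. In NK and HK r was 0.03 to 0.26, and in NC and HC 0.04 to 0.13. These did not all exceed 0.1, so the numbers were not taken as pairs, although NC and NK had r of 0.21 to 0.37. Arrays of unlike number had r of -0.20 to 0.23 in NC and NK, and of -0.32 to 0.23 in HC and HK. Each pregnancy was assigned to normoxia or hypoxia, so NK and HK arrays, or NC and HC arrays, cannot share an ewe. Their r does not bear on which arrays share one. The replicate block thus also joined fetuses of different ewes. Whether same-numbered NC and NK arrays, or HC and HK arrays, share an ewe, the labels do not say.

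Of the genes past the unadjusted criterion in the 4 steroid and cholesterol lists, HC-NC had 5, and 3 under normexp and 8 with the replicate block (3 to 6 without 1 array). HK-HC had 3, and 0 under normexp and 7 with the block (1 to 6). NK-NC had 1, and 0 under normexp or with the strict filter and 2 with array weights (0 to 2). HK-NK had 3, and 1 under normexp (2 to 5). The 4 lists had 7, 9, 18 and 7 genes tested, and CEBPB and NFKBIA are also in the inflammatory list. Over all probes, 4.54% were higher and 6.27% lower in HC-NC, and 2.86% and 1.87% in HK-HC. In NK-NC 0.71% were higher and 1.07% lower, and in HK-NK 2.81% and 2.46%. Of the inflammatory list, HC-NC had 18 (13 to 20). HK-HC had 7, and 1 under normexp, 4 with one background value, 16 with the block, 1 with only the 2 groups fitted and 15 with array weights (2 to 13). HK-NK had 6, and 1 under normexp, 2 in the deposited table, 12 with the block and 12 with only the 2 groups (0 to 10). The cause of these changes was not tested.

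The correlation with IL1RN was 0.98 under normexp, 0.61 in the deposited table and 0.41 over deviations, and 0.69 to 0.80 without 1 array. That with CD14 was 0.52 over deviations, 0.95 and 0.59 within the slides, and 0.74 to 0.82 without 1 array.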
